A study of Arabidopsis thaliana with 16 samples.

Results

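The salt-induced core comprised 149 of the 22746 non-control probe sets on the array, chosen by their signals in these same samples: after the transform log2(signal + 4.1), the mean on salt exceeded the mean on standard medium by at least 1.5 in each of the 4 genotypes. The cpc try mean on standard medium also had to lie within 1 of the wild type mean. Stated symbols were excluded as well, among them LEA4-5, LTI30, COR15A, STZ, PUB19, SIS and symbols of the UGT and CYP families. A difference of 1.5 on this scale is a 2.83-fold change for a bright probe set and a larger ratio of signals for a dim one. The floor of 1.5 was met by 194 probe sets (0.853% of the 22746). Of these, 34 missed the cpc try limit, LEA4-5 and PUB19 among them, and another 11 met the limit and were left out by symbol. Of the 149, 56 had 1 gene in the annotation used here, 3 had several and 90 had none listed, so that 37.6% could be named against 59.4% of all non-control probe sets. The description of named genes below therefore covers a minority of the core.

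The samples were root tips of Arabidopsis thaliana seedlings labelled as the Columbia ecotype, profiled on 16 Affymetrix ATH1 arrays with 2 biological replicates per genotype and medium (4 genotypes, 2 media). Beside wild type these were the double mutants wer-1 myb23-1 and cpc-1 try-82, which carry mutations in MYB-type regulators that set which epidermal cells grow root hairs, and scm-2, a mutant of the receptor-like kinase SCRAMBLED that positions those cells. Seedlings aged 5 days spent 1 hour on fresh standard medium or on the same medium with 140 mM NaCl, and the last 5 mm or so of about 30 roots were pooled for each array. For the mutant arrays titled standard, the growth medium entry of the labels named NaCl, and for all arrays of cpc try and scm it gave 4 days rather than 5. Titles and descriptions were followed. The deposited values are MAS5 signals, linear intensities scaled so that each array had a trimmed mean of 250.03, and a change shared by most transcripts would not show in them.

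Salt in the medium withdraws water from root cells and lets sodium into them, and the hormone abscisic acid rises in response. Roots then make transcripts for proteins that protect dehydrating cells, for regulators of hormone signalling, and for transporters and enzymes that move or modify ions, amino acids, sugars and lipids. Late embryogenesis abundant proteins and dehydrins, first described in drying seeds, are the classical products of this response, and protein phosphatases of type 2C are among its regulators.

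The median signal of all non-control probe sets ranged from 72.5 to 86.0 over the 16 arrays. A control probe set for 25S ribosomal RNA had signals of 2012 to 5229 on standard medium and 5123 to 10298 on salt, a ratio of means of 2.22, and its part in the results was not tested. Of the root tip markers, 2 of 11 were named in the annotation used here: EXPA7, a root hair expansin, at a mean of 942 in wild type and 5.40 in cpc try on standard medium, and JKD, a zinc finger protein of the inner root tissues, at means of 85.2 on standard medium and 58.6 on salt over all genotypes. JKD was at -0.60 ± 0.20 in the averaged salt response (log2, SE, limma adjusted p = 0.028), with -1.46 in wild type and -0.53 to -0.13 in the mutants. EXPA7 was at 0.37 ± 0.14 (SE, limma adjusted p = 0.052), with 1.72 in cpc try, where its standard signal was near the bottom of the range, and -0.45 to 0.19 in the other genotypes. The part of these markers in the results was not tested. The one shoot marker of 8 that could be named, the Rubisco activase RCA, was not at 0, with signals from 164 to 343 on the 16 arrays, and its part in the results was not tested. The ratio of the 3' to the 5' probe set of the control gene GAPDH, which rises as RNA is degraded or copied incompletely, was 4.50 to 5.38 on the 4 wild type arrays and 2.74 to 3.21 on the 4 wer myb23 arrays. It was 3.02 to 3.98 in scm and 2.76 to 6.92 in cpc try, whose salt replicates held both extremes. Each array measured a pool of root tips, so more cells with a transcript and more transcript per cell cannot be told apart.

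The mean signal of a member on standard medium ranged from 3.14 to 1446.5 with a median of 79.8; the median of all signals was 77.9. On salt the means ranged from 60.6 to 7944 with a median of 501. The ratio of the means had a median of 5.92. On standard medium 76 members lay at or above the median of all signals and 26 lay under its 25th percentile of 21.7; on salt 145 lay at or above that median. These values were used to choose the members and are given as a description, with no test.

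**Figure D1:**
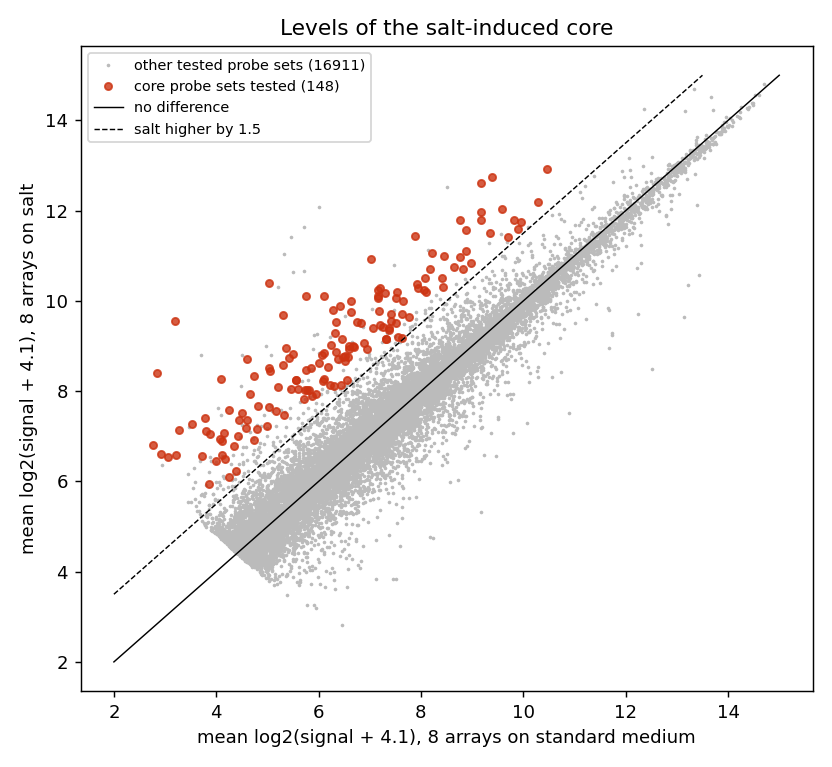
Mean log2(signal + 4.1) of each tested probe set over the 8 arrays on standard medium (x axis) and the 8 arrays on salt (y axis); red points are the 148 tested members, grey points the other tested probe sets, the solid line marks no difference and the dashed line a difference of 1.5. The members lie above the dashed line at all levels of signal, from mean standard signals of 3.14 up to 1446.5.

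On 146 of the 149 members, all 8 salt arrays exceeded all 8 standard arrays, which held for 4.11% of the 17059 probe sets tested. The rule used this contrast, and nothing is read from the share. Within each genotype alone, 147 members had no overlap between media, and the other 2 overlapped in a single genotype. The rule used this contrast too, the share over all probe sets was not counted, and nothing is read from these counts. The median signal of the members was 71.4 to 90.7 on the 8 standard arrays and 430 to 638 on the 8 salt arrays as titled. The rule grouped the arrays by title, so these medians do not bear on the growth medium entry of the labels. Averaged over the 4 genotypes, the salt response, meaning the log2 difference between salt and standard medium, had a median of 2.53 over members and ranged from 1.56 to 6.35. It was 3 or more in 39 members, between 2 and 3 in 88 and under 2 in 22. The standard error of a response in a single genotype had a median of 0.29 over members (0.14 to 1.07), with 2 arrays per medium.

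Among the 56 named members, 34 could be given a role from general knowledge of the gene or family, and they were placed in 6 groups. The remaining 22 have no role stated here. The response median was 3.28 over the 3 protective proteins, 2.38 over 4 transcription factors, 2.58 over 9 signalling and regulatory proteins, 2.35 over 4 proteins of protein synthesis and turnover, 2.33 over 5 transporters and membrane proteins, 2.32 over 9 enzymes and sugar-binding proteins, and 2.44 over the 22 without a role. The ranges of the groups overlapped. The rule used these responses and left out several late embryogenesis genes by symbol, so the groups are not ranked.

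The 3 protective proteins were AT5G66780, a late embryogenesis abundant-like protein, AT2G21820, a seed maturation protein, and AT4G38410, a dehydrin. On standard medium AT5G66780 had signals of 70.9 and 44.3 in wild type, 26.4 and 45.7 in wer myb23, 57.7 and 22.6 in cpc try and 38.0 and 42.4 in scm. On salt its signals were 497 and 418 in wild type, 623 and 324 in wer myb23, 522 and 199 in cpc try and 581 and 678 in scm. Every salt array exceeded every standard array, although the replicates on salt in cpc try lay far apart. Its mean signal was 11.042 times as high on salt, and its response was 3.33 ± 0.21 (log2, SE) averaged over the genotypes. The dehydrin AT4G38410 stood at 159 and 76.6 in wild type, 221 and 192 in wer myb23, 141 and 133 in cpc try and 158 and 111 in scm on standard medium. After transfer to salt it read 1201 and 989.6 in wild type, 1013 and 933 in wer myb23, 2063 and 1292 in cpc try and 1307 and 1381 in scm. Among the standard arrays the wer myb23 pair was the highest, and among the salt arrays it lay at the bottom with 1 wild type array. The responses of AT4G38410 were 3.25 in wild type, 3.30 in scm, 2.21 in wer myb23 and 3.54 in cpc try. For AT2G21820 the standard arrays gave 87.1 and 34.4 in wild type, 42.7 and 45.5 in wer myb23, 45.1 and 26.0 in cpc try and 30.0 and 11.1 in scm. The salt arrays of AT2G21820 gave 313 and 357 in wild type, 447 and 305 in wer myb23, 718 and 572 in cpc try and 289.8 and 245 in scm. The cpc try salt arrays stood above all others here, and the scm arrays were the lowest on salt. The AT2G21820 response was 4.07 in cpc try against 2.51 in wild type.

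**Figure D2:**
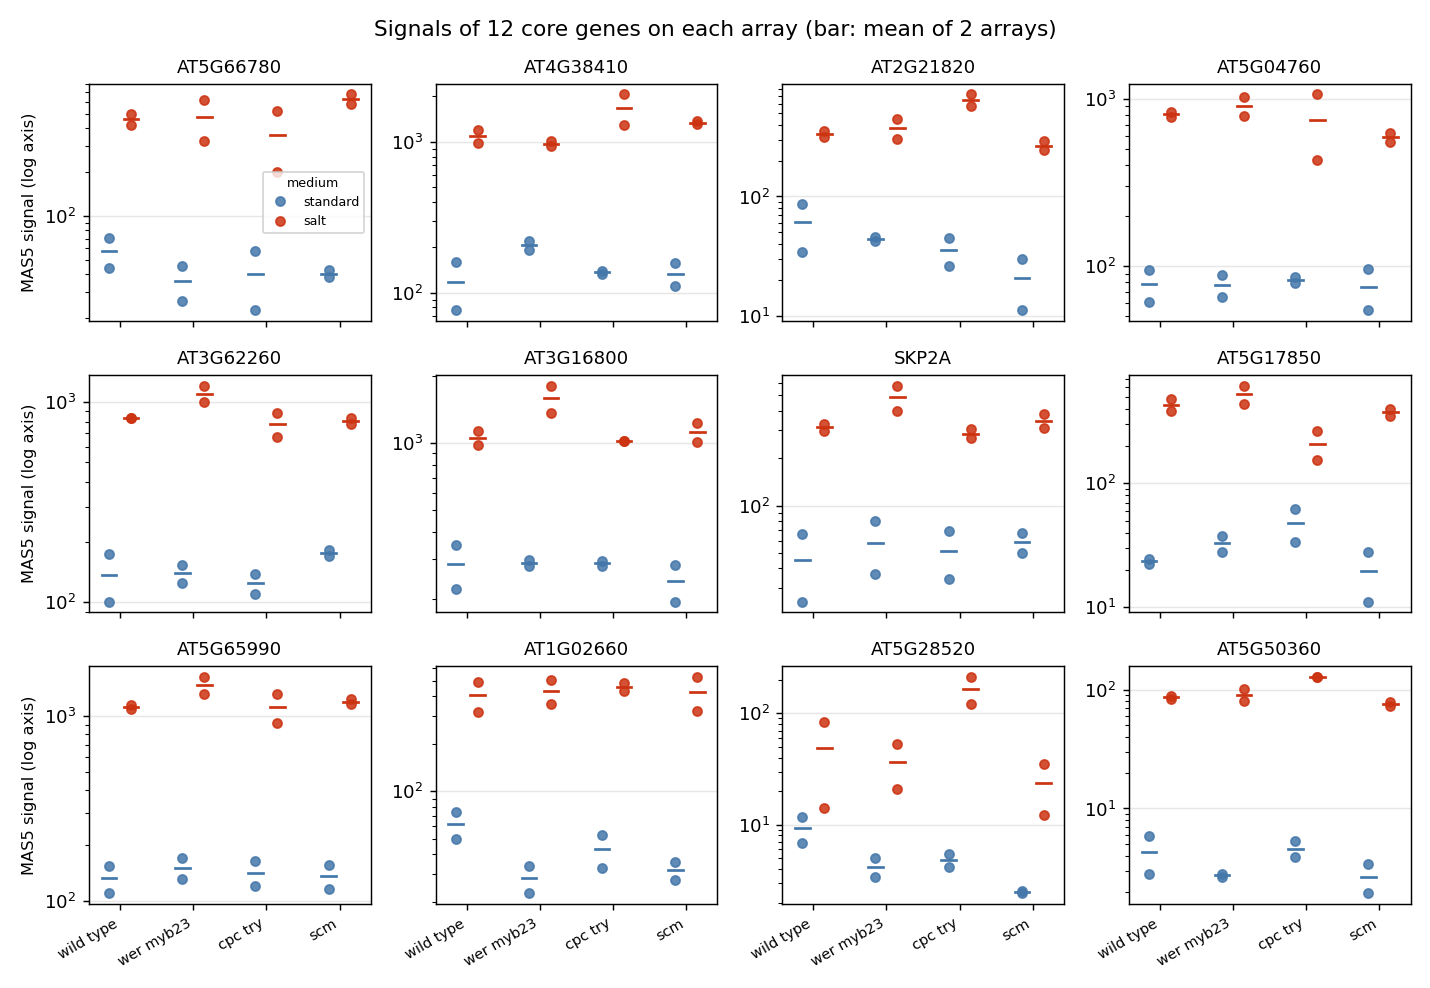
MAS5 signal (log axis) of 12 named members on every array, by genotype, with standard medium in blue and salt in red; each point is an array and each bar the mean of 2 arrays. On all 12 genes the red points lie above the blue points in every genotype; AT5G28520 has the widest spread on salt, from 12.3 to 211, and AT5G17850 has its lowest salt signals in cpc try.

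Of the 4 transcription factors, the MYB-related AT5G04760 had the largest response, 3.19 ± 0.17 (log2, SE). Its signals on standard medium were 95.036 and 60.6 in wild type, 88.5 and 65.2 in wer myb23, 86.3 and 79.2 in cpc try and 54.2 and 96.0 in scm. On salt they were 784 and 834 in wild type, 1023 and 791 in wer myb23, 433 and 1063 in cpc try and 626 and 552 in scm. The standard arrays of the 4 genotypes overlapped one another. On salt scm lay below wild type and wer myb23, and the cpc try replicates spanned all the others. The AP2/ERF factor AT1G64380 had a response of 2.42 ± 0.15, the MADS-box protein AT3G12510 of 2.34 ± 0.17 and the PLATZ zinc-binding protein AT1G21000 of 1.85 ± 0.14 (log2, SE). AP2/ERF proteins include many regulators of dehydration and cold responses, and MADS-box proteins are better known from flower development. AT3G12510 had its smallest response in cpc try, 1.66, and AT1G21000 had its smallest in wild type, 1.59.

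The 9 signalling and regulatory members ranged in response from 1.78 to 3.26. The largest belonged to the receptor-like kinase AT5G24080, at 2.81 in wild type, 2.69 in scm, 3.33 in wer myb23 and 4.22 in cpc try. Its standard signals were 56.5 and 9.92 in wild type, 21.0 and 14.6 in wer myb23, 2.50 and 49.1 in cpc try and 32.6 and 29.2 in scm. The salt arrays of the kinase gave 199 and 202 in wild type, 281 and 162 in wer myb23, 353 and 336 in cpc try and 234 and 211 in scm. The cpc try arrays were the highest of all on salt, while on standard medium the replicates of cpc try and of wild type lay too far apart to rank the genotypes. AT1G19200, of the FLZ zinc-finger family whose members bind the energy-sensing kinase SnRK1, gave 3.95 and 4.93 in wild type, 21.4 and 14.2 in wer myb23, 3.30 and 8.53 in cpc try and 30.3 and 15.9 in scm on standard medium. On salt AT1G19200 gave 86.5 and 219 in wild type, 141 and 164 in wer myb23, 153 and 118 in cpc try and 101 and 88.5 in scm. Signals on standard medium were higher in wer myb23 and scm than in the other genotypes, without overlap, and on salt the wild type pair spanned all the others. The responses of AT1G19200 were 4.06 in wild type, 1.91 in scm, 2.86 in wer myb23 and 3.84 in cpc try.

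AT4G18650 belongs to the family of DOG1, a regulator of seed dormancy, and its response was 3.00 ± 0.27 (log2, SE), smallest in scm at 1.99. AT3G55840 encodes an Hs1pro-1 family protein, named after a nematode resistance gene of sugar beet. Its signals were 67.4 and 26.9 in wild type, 35.5 and 21.9 in wer myb23, 21.3 and 30.4 in cpc try and 7.69 and 12.4 in scm on standard medium. On salt they were 186 and 207 in wild type, 239 and 142 in wer myb23, 293 and 458 in cpc try and 141 and 101 in scm. The scm arrays were the lowest on either medium, and the cpc try arrays were the highest on salt. Its response was 3.65 in cpc try, 3.14 in scm, 2.56 in wer myb23 and 2.09 in wild type.

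A pair of members encodes protein phosphatases of type 2C, neither of them among the phosphatases that bind the abscisic acid receptors. AT3G62260 had signals of 175 and 101 in wild type, 154 and 125 in wer myb23, 110.1 and 139 in cpc try and 170.1 and 182 in scm on standard medium. On salt it had 832 and 831 in wild type, 1207 and 1002 in wer myb23, 879 and 671 in cpc try and 779.7 and 835 in scm. The media were far apart in every genotype, the wer myb23 salt arrays were the highest, and the remaining salt arrays overlapped. The mean signal of AT3G62260 was 6.08 times as high on salt. AT3G16800, which was singled out after its values were seen because it belongs to the same family, had responses of 1.91 in wild type, 2.22 in scm, 2.43 in wer myb23 and 1.82 in cpc try. The GRAM-domain protein AT5G13200 had a response of 2.18 ± 0.15 (log2, SE). SRC2 (AT1G09070), a C2-domain protein named after a cold-responsive gene of soybean, had the smallest response of the group, 1.78 ± 0.13 (log2, SE), with standard signals of 672 to 1472 and salt signals of 2718.5 to 4309. The RIN4-like AT2G17660 completes the group of 9.

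Proteins of synthesis and turnover were 4. SKP2A (AT1G21410), the F-box subunit of a ubiquitin ligase that targets cell cycle regulators, had standard signals of 66.0 and 24.6 in wild type, 79.4 and 36.6 in wer myb23, 69.4 and 34.0 in cpc try and 49.7 and 67.0 in scm. With salt SKP2A read 297 and 330.1 in wild type, 575 and 395 in wer myb23, 305 and 268 in cpc try and 311 and 379.5 in scm. The media did not overlap, and on standard medium the replicates of wild type, wer myb23 and cpc try differed by more than the genotype means did. SKP2A had a response of 2.70 ± 0.20 (log2, SE). AT5G04250, a cysteine protease of the OTU type that removes ubiquitin, gave 136 and 86.6 in wild type, 63.5 and 41.7 in wer myb23, 103 and 52.8 in cpc try and 71.8 and 99.9 in scm on standard medium. On salt it gave 367 and 542 in wild type, 699 and 622 in wer myb23, 381 and 385 in cpc try and 388 and 444 in scm. Its wer myb23 arrays were among the lowest on standard medium and the highest on salt. The chloroplast aspartic protease NANA (AT3G12700) had a response of 2.17 ± 0.08 and the SUI1-type translation initiation factor AT5G54940 of 1.90 ± 0.10 (log2, SE). The signals of AT5G54940 were 889 to 1878 on standard medium and 3360 to 6001 on salt.

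Of the 5 transporters and membrane proteins, AT5G17850, a cation exchanger of the sodium/calcium exchanger family, had the largest response averaged over genotypes, 3.49 ± 0.19 (log2, SE). On standard medium its signals were 22.5 and 24.7 in wild type, 37.7 and 28.0 in wer myb23, 62.3 and 33.5 in cpc try and 28.0 and 11.1 in scm. On salt they were 483 and 384 in wild type, 439.5 and 614 in wer myb23, 265 and 155 in cpc try and 352 and 398 in scm. The cpc try arrays were the lowest of all on salt, and 1 of them was the highest of all on standard medium. The exchanger thus had responses of 3.97 in wild type, 4.097 in scm, 3.84 in wer myb23 and 2.05 in cpc try. AT5G65990, an amino acid transporter, had standard signals of 154 and 109.9 in wild type, 169 and 132 in wer myb23, 164 and 119 in cpc try and 156 and 116 in scm. Its salt signals were 1088 and 1144 in wild type, 1631 and 1324 in wer myb23, 1328 and 919.9 in cpc try and 1240.3 and 1163 in scm. The 4 genotypes overlapped on standard medium, and on salt the wer myb23 arrays were among the highest. Its responses were 3.06 in wild type, 3.12 in scm, 3.26 in wer myb23 and 2.94 in cpc try.

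AT4G12000, a SNARE-associated protein of the Golgi, had responses of 2.94 in wild type, 1.99 in scm, 2.32 in wer myb23 and 2.08 in cpc try. AT1G11960, a membrane protein related to the early dehydration protein ERD4 and to the OSCA channels that open on osmotic stress, had a response of 2.17 ± 0.15, and AT4G33905, a peroxisomal membrane protein of the Mpv17/PMP22 family, had one of 2.09 ± 0.18 (log2, SE). The response of AT4G33905 ranged from 1.91 in wild type to 2.27 in cpc try, while AT1G11960 had its largest response in wer myb23, 2.80.

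The 9 enzymes and sugar-binding proteins ranged from 1.66 to 3.34. AT5G53990, a glycosyltransferase, led the group at 3.34 ± 0.29 (log2, SE), with standard signals of 5.22 and 18.5 in wild type, 2.58 and 20.8 in wer myb23, 22.7 and 14.1 in cpc try and 14.5 and 51.5 in scm. On salt the glycosyltransferase had 227 and 199.8 in wild type, 184 and 158 in wer myb23, 167 and 173 in cpc try and 242 and 176 in scm. The standard signals were dim and their replicates uneven; on salt wild type lay above wer myb23 and cpc try, and scm overlapped wild type. AT1G02660, a lipase-like hydrolase, had standard signals of 73.6 and 49.9 in wild type, 22.7 and 33.8 in wer myb23, 32.5 and 53.2 in cpc try and 27.5 and 35.9 in scm. On salt AT1G02660 had 493 and 318 in wild type, 507 and 359 in wer myb23, 486 and 428 in cpc try and 528 and 321 in scm. Wild type was among the highest on standard medium, and the salt arrays of all genotypes overlapped. Its responses were therefore smallest in wild type, 2.63, and largest in wer myb23, 3.76. The related hydrolase AT1G73480 had responses of 2.55 in wild type, 3.24 in scm, 3.57 in wer myb23 and 2.48 in cpc try. AT2G38240, an oxygenase of the 2-oxoglutarate-dependent family, and AT1G05170, a galactosyltransferase, had responses of 2.32 ± 0.36 and 2.18 ± 0.14 (log2, SE).

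AT5G28520, a jacalin-like lectin, was the only member too dim overall to pass the filter on low signals, and it was not tested. Its standard signals were 11.7 and 6.81 in wild type, 4.97 and 3.40 in wer myb23, 4.19 and 5.42 in cpc try and 2.55 and 2.44 in scm. After salt the lectin read 14.2 and 83.8 in wild type, 20.8 and 52.7 in wer myb23, 120.1 and 211 in cpc try and 35.1 and 12.3 in scm. All 8 salt arrays exceeded all 8 standard arrays by a narrow margin, 12.3 against 11.7, and the 2 cpc try salt arrays stood above the rest. The response was 4.20 in cpc try and 1.61 to 2.19 in the other genotypes. AT3G59850, a pectin lyase-like protein, had the smallest response of all named members, 1.66 ± 0.12 (log2, SE). The aldo-keto reductase AT5G01670, singled out after its values were seen, was the only named member whose media overlapped. Its standard signals were 46.2 and 1.4984 in wild type, 32.4 and 4.99 in wer myb23, 5.96 and 61.4 in cpc try and 2.25 and 39.9 in scm. On salt AT5G01670 had 70.6 and 71.8 in wild type, 110.5 and 34.9 in wer myb23, 129 and 40.3 in cpc try and 51.8 and 51.6 in scm. In cpc try 1 standard array exceeded 1 salt array, and in every genotype the standard replicates differed several-fold or more.

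Among the 22 named members without a stated role, the largest responses were those of AT5G50360, at 3.68 ± 0.34, and AT5G54300, at 3.60 ± 0.19 (log2, SE), which were also the largest of all named members. AT5G50360 had standard signals of 2.80 and 5.83 in wild type, 2.66 and 2.82 in wer myb23, 3.87 and 5.28 in cpc try and 3.40 and 1.94 in scm. On salt it had 89.4 and 83.8 in wild type, 101 and 79.7 in wer myb23, 127 and 128 in cpc try and 78.7 and 72.6 in scm. Standard signals were at the bottom of the array's range and the salt signals stood clear of them in all genotypes. No ratio is given against signals this low. AT5G54300 gave 72.4 and 22.6 in wild type, 43.0 and 48.4 in wer myb23, 19.9 and 30.8 in cpc try and 47.6 and 33.7 in scm on standard medium. On salt AT5G54300 gave 605 and 527 in wild type, 846 and 657 in wer myb23, 212 and 343 in cpc try and 613 and 463 in scm. The cpc try arrays were the lowest on salt without overlap. AT1G31750 had a response of 3.31 ± 0.40, AT3G51750 of 3.13 ± 0.16, AT3G03170 of 2.97 ± 0.11 and AT1G20070 of 2.86 ± 0.09 (log2, SE). The smallest responses of the 22 included that of AT2G28400, at 1.68 ± 0.14 (log2, SE).

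The 12 largest responses of the core all belonged to probe sets with no gene listed or several, which remain unnamed here; 3 members carry a suffix that marks probe sets able to match more than a single transcript. The leading probe set had a response of 6.35 ± 0.30 (log2, SE). It read 7.31 and 1.25 in wild type, 5.9996 and 2.33 in wer myb23, 13.0 and 1.45 in cpc try and 1.04 and 22.1 in scm on standard medium. On salt it read 594 and 473 in wild type, 984 and 769.6 in wer myb23, 707 and 1036 in cpc try and 712 and 831 in scm. Signals on standard medium were at the bottom of the array's range and differed several-fold between most replicates, while those on salt varied far less. The next probe set followed at 5.57 ± 0.26, with standard signals of 1.97 to 6.31 and salt signals of 204 to 813. No ratio of signals is given for either, since their standard signals lie around or under the 25th percentile of all signals. The median response was 2.603 over the members without a single listed gene and 2.44 over the 56 named ones.

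The members at the edges of the rule were as follows. Just inside the floor of 1.5 were SRC2, at 1.53 in cpc try, AT1G01240, at 1.53 in wer myb23, and AT3G59850, at 1.54 in cpc try. Just outside it were ARL, at 1.498 in wild type, AT2G31945, at 1.49 in scm, and AT1G73920, at 1.47 in wild type. Just inside the limit on cpc try minus wild type on standard medium were AT5G05220 at -0.94, AT3G51750 at 0.91 and AT5G17850 at 0.85, and just outside it AT2G15960 at 1.01, AT5G15190 at 1.03 and AT2G43870 at 1.09. Of the 34 probe sets that met the floor and missed the limit, 24 were higher and 10 lower in cpc try than in wild type on standard medium. A further 131 probe sets met the floor in 3 of the 4 genotypes, and 67 were lower on salt by 1.5 or more in all 4.

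The range of a member's 4 responses had a median of 0.72, against a median of 2.53 for the response averaged over the genotypes. The range was under 1 in 100 of the 149 and 2 or more in 7. AT5G19875, singled out after its values were seen, had the smallest range of the named members. Its responses were 2.24 in wild type, 2.21 in scm, 2.33 in wer myb23 and 2.29 in cpc try. It read 172 and 127 in wild type, 102 and 138 in wer myb23, 176 and 127 in cpc try and 131 and 188 in scm on standard medium. On salt AT5G19875 read 739 and 691 in wild type, 527 and 712 in wer myb23, 916 and 607 in cpc try and 755 and 732 in scm. On either medium the 4 genotypes overlapped. The named members with the widest ranges were AT5G28520 (2.59), AT1G19200 (2.15), AT5G17850 (2.05) and AT1G31750 (2.03), and they were singled out after their values were seen. In AT5G28520 cpc try had the largest response, in AT5G17850 and AT1G31750 the smallest, and in AT1G19200 the smallest was that of scm.

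By genotype, the median response over the 149 members was 2.39 in wild type, 2.44 in scm, 2.41 in cpc try and 2.68 in wer myb23, while the median over all tested probe sets lay between -0.007 and 0.005. The member's largest response fell in wer myb23 for 71 members (47.7%), in scm for 33 (22.1%), in cpc try for 26 (17.4%) and in wild type for 19 (12.8%). Over all tested probe sets these shares were 25.1%, 23.0%, 26.4% and 25.5%. The smallest response fell in wild type for 56 members, in cpc try for 47, in scm for 30 and in wer myb23 for 16. The rule used these responses, and all members share the same arrays. The medians, counts and shares are therefore a description, with no test. Over the members, the median SD between replicates on standard medium was 0.38 in wild type, 0.31 in scm, 0.26 in cpc try and 0.20 in wer myb23 (log2, n = 2). The wild type standard arrays, which enter every comparison with wild type, were thus the least alike in the members' signals.

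**Figure D3:**
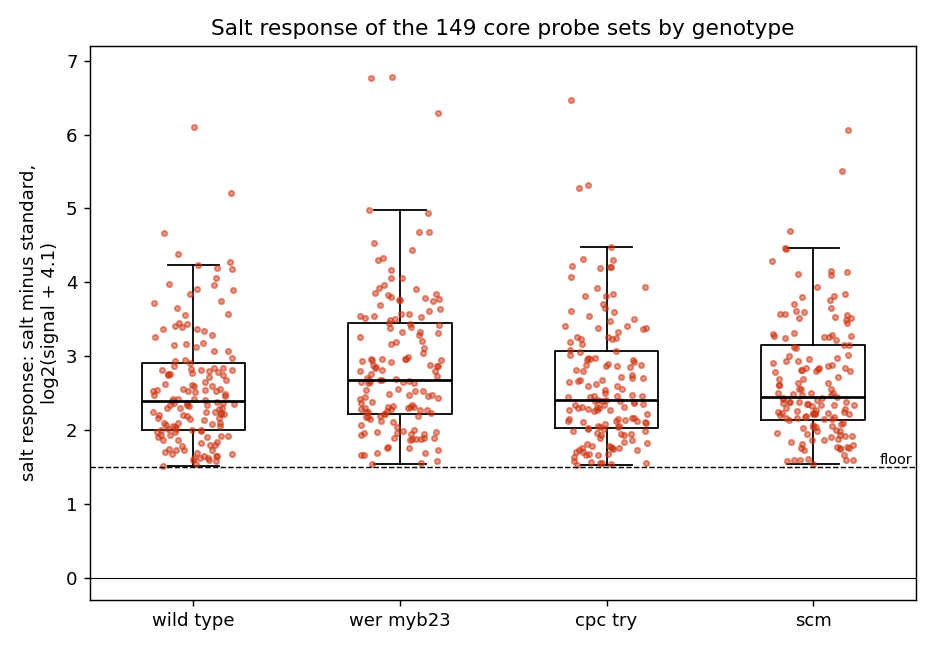
Salt response, as salt minus standard medium on the log2(signal + 4.1) scale, of each of the 149 members in each genotype; boxes show the quartiles and the median, whiskers reach the last point within 1.5 times the box, and the dashed line is the floor of 1.5 that the rule set. The medians are 2.68 in wer myb23 and 2.39 to 2.44 in the other genotypes, and the points of all genotypes overlap.

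Whether a mutant's response differed from that of wild type was tested with limma for the 148 members that passed the filter, in a fit over all 17059 probe sets. The rule used the same group means. It removed every probe set whose response lay under the floor in any genotype, 131 of which met it in the other 3, and its limit on cpc try bears on the cpc try comparison. A response lost in a mutant could therefore not appear among the members, and the counts below describe the members as chosen. The 3 comparisons share the wild type arrays. No member passed the adjusted threshold of 0.05 in any mutant. In wer myb23, cpc try and scm, 0.00586%, 0.0176% and 0% of all probe sets passed it (1, 3 and 0 probe sets). The smallest adjusted p of a member was 0.28 for cpc try, 0.83 for wer myb23 and 1 for scm.

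At an unadjusted p under 0.05, 12 members (8.11%) passed in wer myb23, 11 with a larger and 1 with a smaller response, against 5.04% of all probe sets. In cpc try 10 members (6.76%) did, 3 larger and 7 smaller, against 8.68%. In scm 7 members (4.73%) did, 5 larger and 2 smaller, against 4.48%. The estimated difference was above 0 for 110 of 148 members (74.3%) for wer myb23, 81 for cpc try and 83 for scm, against 49.6%, 49.5% and 49.6% of all probe sets. The GAPDH ratio given above also separated the wer myb23 arrays, and the scm arrays, from the wild type arrays. Its part in the comparisons of these mutants with wild type, on standard medium as well as in the responses, was not tested. The median difference over members was 0.05 for cpc try, 0.07 for scm and 0.29 for wer myb23. Without wild type standard replicate 1 the wer myb23 median was 0.18, and without wild type standard replicate 2 it was 0.47. With the same arrays left out the cpc try median was -0.11 and 0.15, and the scm median was -0.02 and 0.19. The direction of the cpc try and scm medians thus turned with a single wild type array. The cpc try median was also -0.02 without cpc try standard replicate 1 and -0.04 with quantile normalization.

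These tests do not show that the responses were alike. The 95% interval of a difference extended a median of 0.86 to either side of the estimate (0.41 to 3.16 over members). It lay wholly between -1 and 1, that is within a 2-fold difference, for 50 of 148 members in cpc try, 45 in scm and 40 in wer myb23. Over all 17059 tested probe sets it did so for 5602 in cpc try, 6058 in scm and 5972 in wer myb23. The member counts are therefore not read as a property of the core.

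The named members with the smallest p in these comparisons are given as values, and they were singled out after the values were seen. For AT5G04250, the OTU-type protease, the wer myb23 response exceeded that of wild type by 1.58 (95% interval 0.67 to 2.48, limma adjusted p = 0.83). In cpc try and scm the differences of AT5G04250 were 0.32 and 0.24. On standard medium AT5G04250 lay at -1.02 ± 0.31 (SE) in wer myb23 relative to wild type, so that the larger wer myb23 response had a lower start as well as a higher end. AT3G03170 and the hydrolase AT1G73480 were similar, with differences of 1.06 (0.41 to 1.72) and 1.02 (0.31 to 1.73) in wer myb23. The dehydrin AT4G38410 went the other way in wer myb23, at -1.04 (-1.83 to -0.25). Their adjusted p were 0.87, 0.9 and 0.93 in limma.

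In cpc try, the exchanger AT5G17850 had a difference of -1.92 (95% interval -3.04 to -0.81, limma adjusted p = 0.28), against -0.14 in wer myb23 and 0.12 in scm. The seed maturation protein AT2G21820 had 1.55 (0.38 to 2.73) and AT3G55840 1.56 (0.27 to 2.84) in cpc try, with limma adjusted p = 0.42 and 0.49. In scm, AT1G19200 of the FLZ family had the most negative value, -2.15 (-3.76 to -0.53), and AT2G34610 had 1.304 (0.35 to 2.26), both with limma adjusted p = 1. The wild type standard signals of AT1G19200, given above, were near the 10th percentile of all signals (4.11) and below both scm signals. None of these differences is a call.

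**Figure D4:**
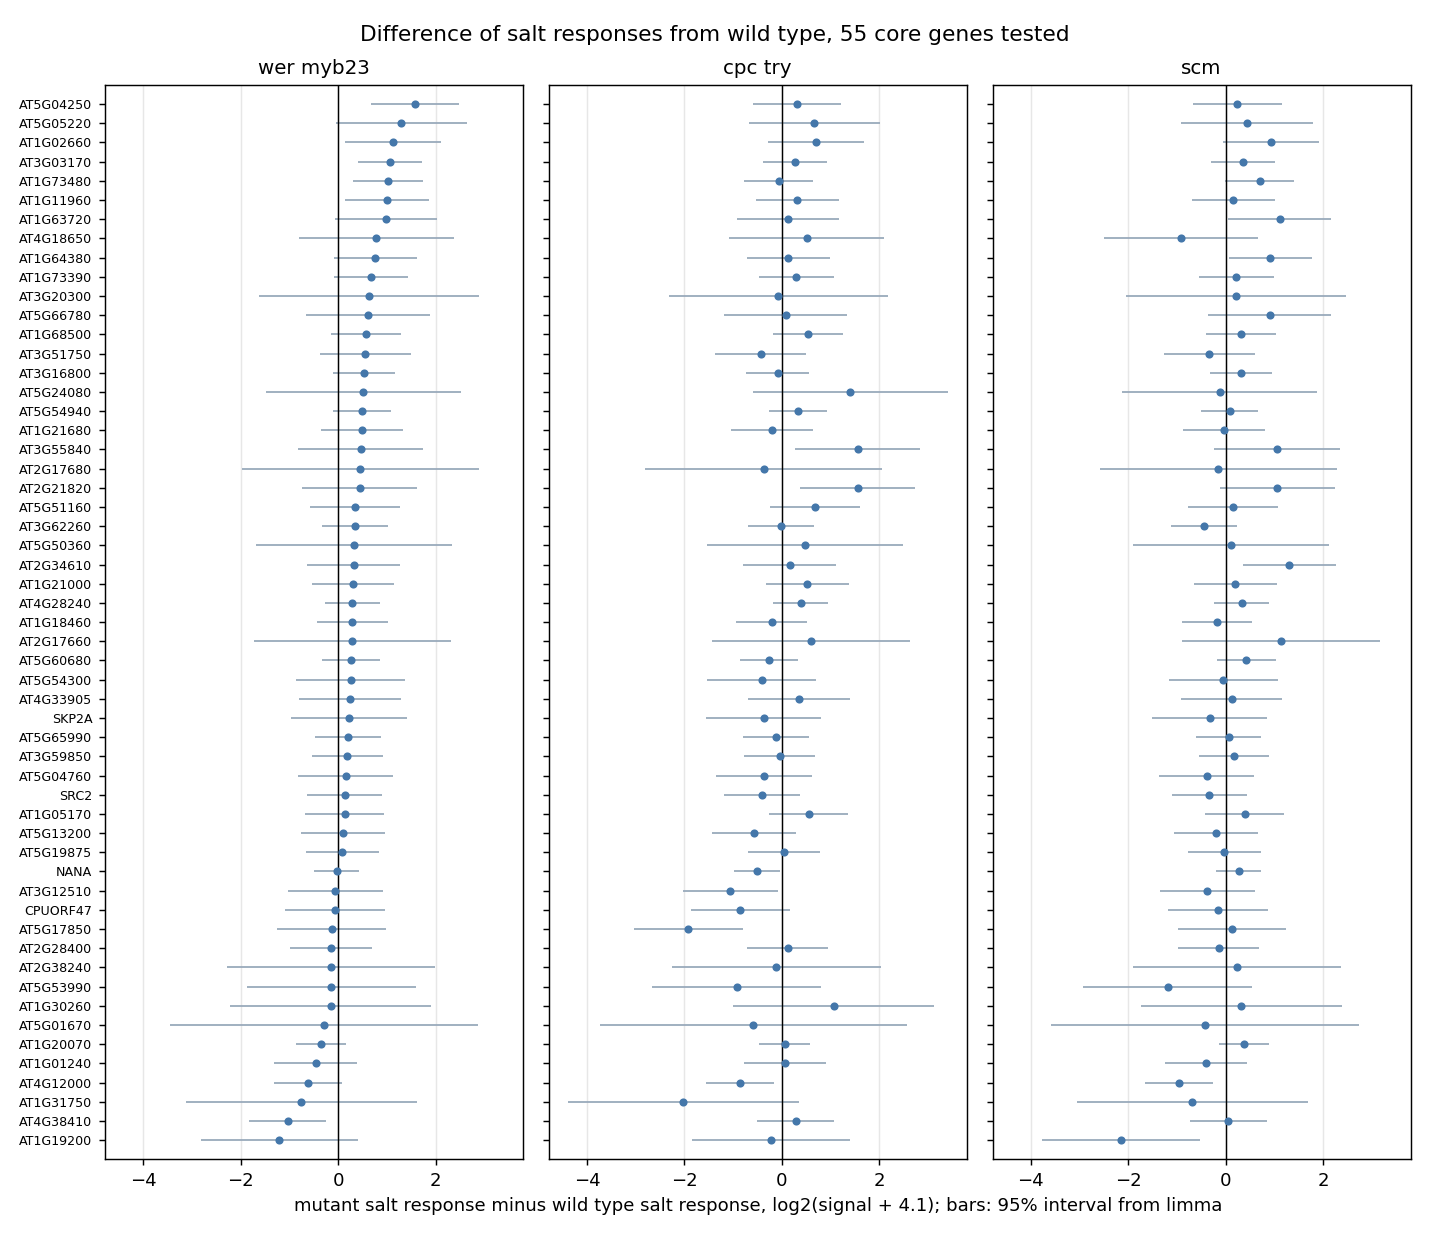
Mutant salt response minus wild type salt response (x axis, log2 scale) for the 55 named members that were tested (y axis, ordered by the wer myb23 value), in panels for wer myb23, cpc try and scm; points are limma estimates and bars 95% intervals. Most points in the wer myb23 panel lie right of 0, AT5G04250 at 1.58 being the farthest, and no member passes the adjusted threshold in any panel.

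Levels before salt were compared on standard medium for wer myb23 and scm. The rule did not use these differences, but the same standard arrays entered the responses that chose the members, and nothing is read from the shares below. No member was called by limma in either, where 0.0879% (15) and 0.0528% (9) of the 17059 probe sets were. At an unadjusted p under 0.05, 24 members (16.2%) passed between wer myb23 and wild type, 10 higher and 14 lower, against 8.61% of all probe sets. Between scm and wild type 29 members (19.6%) did, 6 higher and 23 lower, against 8.69%. The median difference over members was -0.03 in wer myb23 and -0.15 in scm. Without wild type standard replicate 2 these medians were -0.23 and -0.27, and without wild type standard replicate 1 they were 0.08 and 0.04, so their direction turned with a single array. The wer myb23 median was also 0.009 without wer myb23 standard replicate 2, 0.05 with median-centring and 0.025 with quantile normalization.

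For scm on standard medium the named members with the smallest p were AT2G34610, at -1.36 ± 0.32, AT3G55840, at -1.76 ± 0.44, and AT2G21820, at -1.38 ± 0.40 (log2, SE, limma adjusted p = 0.16, 0.19 and 0.29). For wer myb23 they were AT5G04250, at -1.02 ± 0.31, AT4G38410, at 0.87 ± 0.27, and AT1G02660, at -1.02 ± 0.33 (limma adjusted p = 0.29, 0.3 and 0.36). All 6 were singled out after their values were seen. Leaving out an array ended the count of 0 in a few cases. Without wild type standard replicate 1, AT4G38410 was called higher in wer myb23 (1.38, limma adjusted p = 0.041). Without wild type standard replicate 2, AT3G55840 was called lower in scm (-2.36, limma adjusted p = 0.042), as was 1 unnamed member, and 1 unnamed member was called lower in wer myb23. The latter was also called without wer myb23 standard replicate 1.

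The wider salt pathways could hardly be read from these names. Of 144 genes in 7 lists (abscisic acid receptors and core signalling, abscisic acid synthesis and breakdown, stress transcription factors, dehydration and cold effectors, compatible solutes, ion transport and jasmonate response), 3 were named in the annotation used here, and none was a member. The dehydrin COR47 rose by 0.53 ± 0.07 averaged over the genotypes, and COR15B, a cold-regulated chloroplast protein, rose by 1.01 ± 0.27 (log2, SE, limma adjusted p = 2.7e-06 and 0.0069). The mean signal of COR47 was 13341 ± 1282 on standard medium and 19361 ± 2345 on salt (SD, n = 8 arrays over 4 genotypes), and its responses were 0.41 to 0.66 in the 4 genotypes. Differences between signals this high on an array may be compressed. The responses of COR15B were uneven, at 0.21 in wild type, 0.82 in cpc try, 1.498 in wer myb23 and 1.52 in scm. Its mean signal on standard medium was 50.2 in wild type and 28.2 over the 4 genotypes. The averaged rise of COR15B is therefore not read as a rise in wild type. PRODH2, a proline dehydrogenase, was at 0.28 ± 0.30 (SE, limma adjusted p = 0.55). For comparison, 13.6% of all probe sets were called higher in the averaged response. The other 141 genes of the lists were not analysed here.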

How the data were processed

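Root tip RNA was hybridized to Affymetrix ATH1 arrays, and the authors deposited 1 table of signals. These are linear intensity values from MAS5, per the submitters' processing notes; no source used here gives its version or scaling. Titles gave each array its genotype and medium. Precision is limited by the number of arrays (2 per group), and each is a labelled biological replicate of pooled roots.

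The 64 control probe sets were left out. Values were transformed as log2(signal + 4.1), which understates the change of dim probe sets, and probe sets whose mean lay under the 25th percentile were not tested. The remaining 17059 were fitted with 8 group means in limma 3.58.1 (R 4.3.3, empirical Bayes with a trend, two-sided). Benjamini-Hochberg adjustment ran over all 17059, and an adjusted p under 0.05 was a call. The fit was tested on simulated data. Design and unit were as planned.

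The members and the gene lists were chosen with earlier results of these data known. Genes were named from the platform annotation where a probe set had exactly 1 gene, and 13436 of the 13513 such probe sets matched a RefSeq locus (TAIR10.1, used for names and gene order only). Role groups were assigned from general knowledge after the annotation was seen. The naming rule took up to 6 members per role group, the 5 largest and 3 smallest responses, called members, the members at each threshold and up to 4 genes per list. Other names are marked as singled out, or were given to complete a group (AT2G17660) or to place a neighbour. No sequences are shown. Alternatives were another pseudocount, no filter, median-centring, quantile normalization, no trend, a replicate block, other floors and leaving out each array. The replicate numbers did not pair the samples: replicate differences of 28 pairs of groups had correlations between -0.034 and 0.052 over probe sets.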

Additional observations from a re-analysis of the deposited data

How the results depend on the processing

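The core held 84 members at a floor of 2, all of them among the 149 as a stricter floor requires, and 318 at a floor of 1. With a pseudocount of 16 or 1, median-centring or quantile normalization it held 135, 157, 139 and 137. Of these, 128, 143, 138 and 136 were among the 149. With any single array left out it held 122 to 153. Without wild type standard replicate 2, 111 of the 122 were among the 149, the fewest shared with any array left out. The tests of the core gave 0 calls under each processing alternative except the replicate block, under which 1 unnamed member was called lower in wer myb23 on standard medium (-1.84, limma adjusted p = 0.028); with an array left out they gave 0 to 1 there, 0 to 2 for scm on standard medium and 0 to 0 in the comparisons of responses. Over all probe sets the few calls moved more. For wer myb23 on standard medium 15 became 8 without the filter, 8 with a pseudocount of 1 and 2 without the trend (4 to 37 with an array left out). For scm 9 became 3 without the trend (3 to 39). For the wer myb23 difference of responses 1 became 0 without the filter, with a pseudocount of 16 or with quantile normalization, 5 without the trend and 2 with the replicate block (0 to 7). For cpc try 3 became 1 with quantile normalization (1 to 41), and for scm 0 became 2 without the trend (0 to 6). The most calls came without wild type standard replicate 2 on standard medium and without wild type salt replicate 1 for the responses. The causes were not tested. The averaged response gave 3820 to 4595 calls with an array left out, and 2 of 3 listed genes were called higher throughout. Over the processing alternatives the median difference of the members' responses was 0.25 to 0.30 in wer myb23, -0.04 to 0.06 in cpc try and 0.02 to 0.12 in scm. Depth is not recorded for arrays; the 26 members under the 25th percentile of signals on standard medium have the least certain responses.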

Other observations

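The genes next to the named members were read from the RefSeq gene order. No neighbour was itself a named member. Of the 44 neighbours with a tested probe set of their own, 12 were called higher and 2 lower in the averaged salt response. Their median change was 0.18 on the log2 scale. Of all 17059 tested probe sets, 4515 were called in either direction, 2324 of them higher (13.6% of the 17059). AT5G03180, next to CPUORF47 (AT5G03190), rose by 1.80 ± 0.24, AT1G21010, next to the PLATZ gene AT1G21000, rose by 1.32 ± 0.15, and AT5G24070, next to the receptor-like kinase AT5G24080, fell by 1.26 ± 0.13 (SE, limma adjusted p = 4.8e-06, 1.1e-06 and 1.8e-07). These 3 were singled out after their values were seen. Of the 56 named members, 18 lay on chromosome 1, 6 on chromosome 2, 9 on chromosome 3, 5 on chromosome 4 and 18 on chromosome 5, or 32.1%, 10.7%, 16.1%, 8.93% and 32.1%, where the tested named probe sets had 26.1%, 15.2%, 20.3%, 14.6% and 23.8%.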
